A study of Mus musculus with 20 samples.

Results

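The genes described here are 35 cell cycle and DNA replication genes, chosen by name, among the 40440 gene entries counted in liver and subcutaneous adipose tissue (SAT) of mice. All 35 were found and all 35 passed the filter on low counts in every comparison. The mice were male C57BL/6J, aged 8 to 9 months when they were operated on. In 1 arm the epididymal visceral adipose tissue (VAT) was taken out, in the other the abdomen was opened and closed (sham), and every mouse then ate a high-fat diet, controls included. The groups were sham liver, VAT removed liver, sham SAT and VAT removed SAT, with 5 libraries of ribosomal RNA-depleted total RNA in each, 20 in all. How long the diet lasted is not stated in the labels. The labels number the samples of a group without saying that each came from its own mouse, so a p-value below measures only the spread between these samples, which may be technical.

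Cells enter the cycle when D-type and E-type cyclins activate kinases that free the E2F transcription factors, which switch on genes for DNA synthesis. The Mcm2 to Mcm7 helicase, the sliding clamp Pcna and enzymes that make nucleotides then copy the genome, and cyclins A and B with the kinase Cdk1 drive mitosis. Most hepatocytes and adipocytes of adult animals rest outside the cycle, and hepatocytes can re-enter it after loss of liver tissue, while in fat much of the division is known from progenitors and immune cells. In bulk tissue, fewer cells of a type and less RNA per cell cannot be told apart.

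Total counts ran from 20307159 to 43618452 per library. Levels are given as CPM, counts scaled to a common library size, with TMM factors over all 20 libraries, so that a gene's level can be set side by side in the tissues, and differences are on the log2 scale. Markers followed the labelled tissue. The summed level of 8 hepatocyte genes was 77260 to 107400 CPM in liver and 10.7 to 29.9 in SAT, and that of 8 adipocyte genes was 8665 to 19120 CPM in SAT and 61.2 to 265 in liver. Sham SAT libraries 3 and 4 stood apart from the other 8 SAT libraries. Their 10 B cell markers summed to 624 and 660 CPM against 7.82 to 12.2 in the others, and their 10 T cell markers to 401 and 359 CPM against 8.3 to 18.0. No marker of either list was at 0 in all libraries of a SAT group. Results for SAT are therefore given with and without these libraries.

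Per kilobase of exon, the members spanned a wide range of levels in each group. Ccnd1, which encodes cyclin D1, was the most abundant member in liver, at 15.8 ± 9.97 CPM per kb in sham and 20.1 ± 11.1 after VAT removal (SD, n = 5). In SAT the top member was Cdkn1a, which encodes the kinase inhibitor p21, at 16.9 ± 6.46 and 21.2 ± 1.88 CPM per kb. Pcna came next in SAT, at 9.93 ± 1.09 and 8.39 ± 0.451. Bub1, a spindle checkpoint kinase, had the lowest level per kb in all 4 groups, from 0.124 ± 0.0716 CPM per kb in VAT removed liver to 0.291 ± 0.166 in sham SAT. It rested on as few as 4 reads in a liver library, so its liver values carry a large counting error. Between these ends, neighbours in the order mostly lay within each other's spread: Cdkn1a and Pcna in sham liver, for example, had 11.1 ± 8.56 and 9.37 ± 2.35 CPM per kb.

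Across the 10 liver libraries the highest CPM of a member was a median of 4.52 times its lowest, and across the 10 SAT libraries 2.96 times. Without sham SAT libraries 3 and 4 the median in SAT was 1.84. Cad, which encodes the enzyme that starts pyrimidine synthesis, varied least in every set (1.47 times in liver, 1.29 in SAT and 1.1 in the 8 SAT libraries). Cdc20, the activator of the anaphase-promoting complex, varied most in liver (14.5 times), and without VAT removed liver 3, which held its lowest value, its ratio was 4.06, the median member's 3.33 and the largest that of Aurkb (8.08). In SAT the largest was that of Cenpf, a kinetochore protein (7.78 times). Over the 10 liver libraries the median ratio was 2.36 for the 12 replication genes and 4.59 for the 13 spindle genes, and over the 10 SAT libraries 2.2 and 4.83. For the 5 genes of the cyclin A and B, Cdk1 and Foxm1 group it was 7.69 in liver and 4.05 in SAT. For the 4 genes of entry into S phase it was 6.25 and 2.09. Low levels enter some of these ratios, and with them a large counting error. The lowest liver value was 0.479 CPM for Cdc20, 0.429 for Aurkb, 0.174 for Bub1 and 0.598 for Plk1, all spindle genes.

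**Figure D1:**
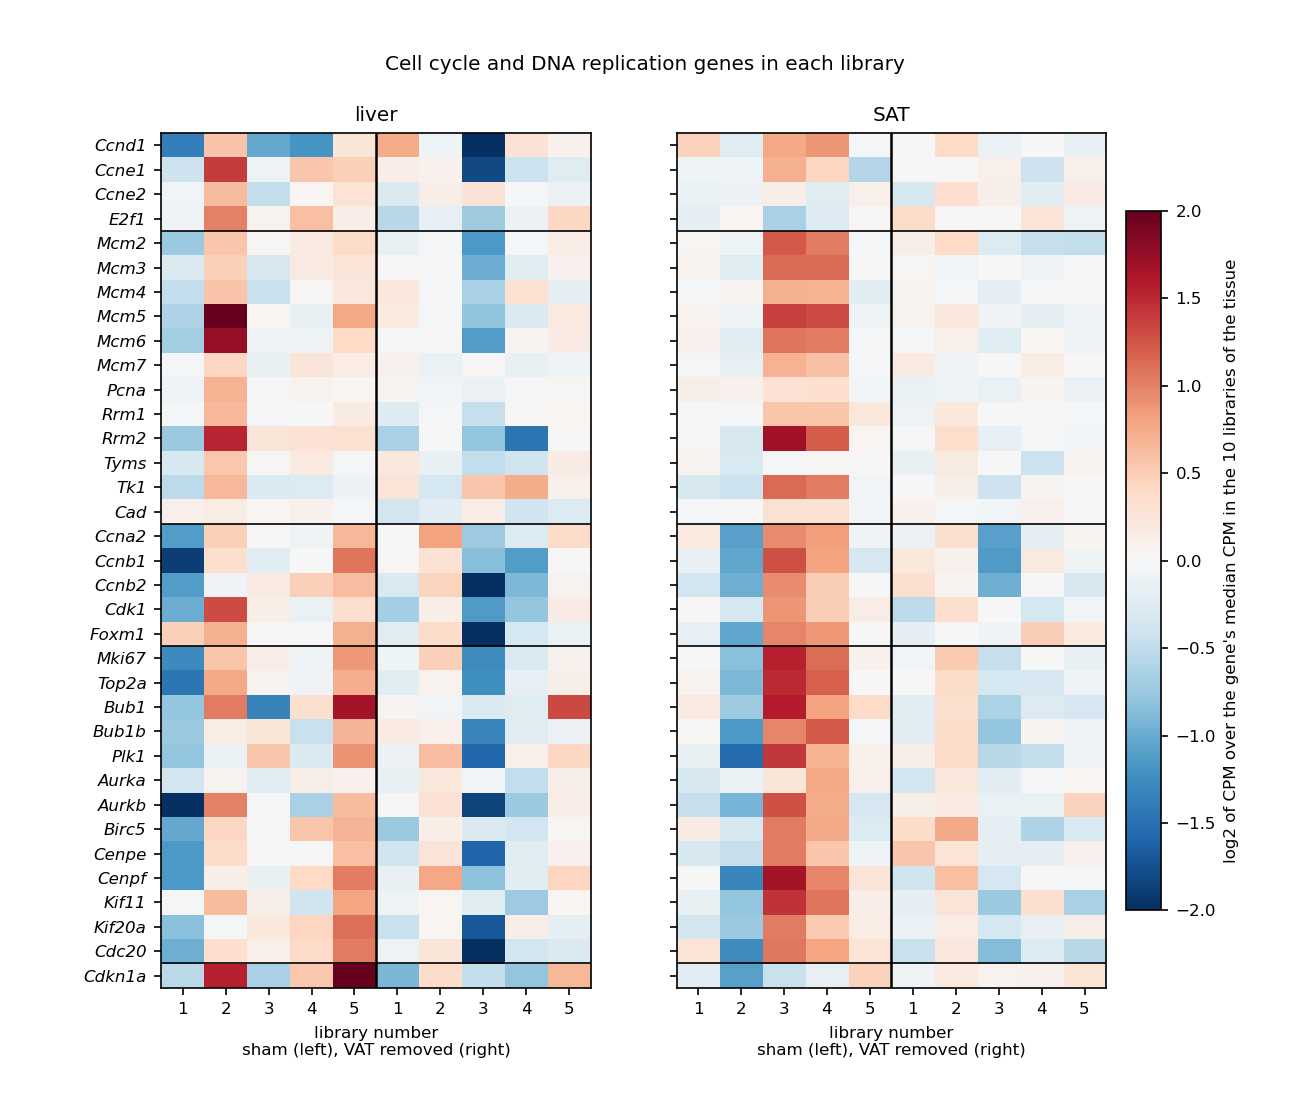
Heat map of the 35 members (rows, ordered by role) in the 10 liver and 10 SAT libraries (columns, by number within sham and VAT removed), where colour gives the log2 of a library's CPM over the gene's median in that tissue, with colours limited to the range from -2 to 2. The columns of sham SAT 3 and 4 are red for most members, sham liver 2 is darkest in the replication genes, sham liver 5 in the spindle genes, and VAT removed liver 3 is blue for most members.

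In SAT, sham libraries 3 and 4 were both above each of the other 8 libraries in 30 of the 35 members, against 24.7% of the 18530 genes tested there. The pattern covered 11 of 12 replication and nucleotide genes, all 5 of the cyclin A and B, Cdk1 and Foxm1 group, 12 of 13 chromosome, spindle and checkpoint genes, and 2 of 4 genes of entry into S phase. Set against the median of the other 8 SAT libraries, the median member was 2.17 times as high in library 3 and 1.86 times in library 4. For the 13 spindle genes these ratios were 2.66 and 2.0, and for the 12 replication genes 1.92 and 1.87. Library 3 had the highest value of the 10 in 25 members and library 4 in 6.

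Among the genes of chromosomes and spindles, Mki67, the common marker of cycling cells, read 25.6, 14.6, 76.1, 56.4 and 27.5 CPM in sham SAT libraries 1 to 5. The 5 VAT removed SAT libraries had 24.8, 37.1, 18.8, 26.1 and 23.3 CPM. Libraries 3 and 4 were highest and library 2 lowest, so that the sham range enclosed the whole VAT removed range. Top2a, the topoisomerase that untangles replicated DNA, had 12.3, 6.22, 32.8, 26.7 and 11.7 CPM in sham and 11.6, 15, 9.08, 9.25 and 11 after VAT removal, with the same libraries at the ends of the sham range. Bub1 read 0.925, 0.499, 2.41, 1.43 and 1.06 CPM in sham SAT and 0.702, 1.01, 0.525, 0.671 and 0.645 in VAT removed SAT. Aurkb, a kinase that corrects attachments of chromosomes to the spindle, had 1.7, 1.23, 5.7, 3.93 and 1.86 CPM in sham SAT. After VAT removal it read 2.56, 2.62, 2.14, 2.14 and 3.22 CPM, which lay above sham libraries 1, 2 and 5 and below 3 and 4. Cenpe, a kinetochore motor, was the spindle gene outside the pattern: it read 3.92, 3.58, 10.1, 7.19 and 4.59 CPM in sham, and VAT removed library 1 exceeded sham library 4 among 7.24, 5.93, 4.34, 4.3 and 5.23 CPM.

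Cdk1 had 3.29, 2.58, 6.1, 4.63 and 3.68 CPM in sham SAT and 2.31, 4.17, 3.33, 2.59 and 3.2 in VAT removed SAT. For Ccna2, cyclin A2, the sham libraries had 4.82, 2.00, 8.18, 7.51 and 4.05 CPM and the VAT removed ones 3.88, 5.3, 2.00, 3.73 and 4.41. Ccnb1, cyclin B1, read 1.31, 0.707, 3.54, 2.53 and 1.16 CPM in sham and 1.68, 1.55, 0.661, 1.64 and 1.36 after VAT removal. In each of these genes sham libraries 3 and 4 were the highest of the 10. Foxm1, the transcription factor of mitotic genes, had 3.99, 2.16, 8.76, 8.14 and 4.5 CPM in sham SAT and 3.94, 4.42, 4.26, 6.24 and 5.13 in VAT removed SAT, with sham library 2 lowest of all.

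The replication genes mostly showed the same 2 libraries at the top. Mcm2 read 8.4, 7.76, 19.2, 16.9 and 8.06 CPM in sham SAT and 8.95, 10.8, 6.81, 5.97 and 5.88 in VAT removed SAT. Mcm5 had 7.23, 6.49, 17.9, 17 and 6.48 CPM in sham and 7.27, 8.11, 6.61, 6.04 and 6.55 after VAT removal. For Mcm6 the values were 13.1, 10.4, 26.1, 25.1 and 12 CPM in sham and 12, 13.2, 10.4, 12.7 and 11.5 after VAT removal. In all 3 genes, sham libraries 3 and 4 lay above the rest with a wide gap. Rrm2, the regulated subunit of ribonucleotide reductase, had 3.07, 2.41, 9.74, 7.01 and 3.1 CPM in sham SAT and 2.98, 3.85, 2.7, 2.93 and 2.9 in VAT removed SAT, and its large subunit Rrm1 had 15.8, 15.3, 23.3, 23.1 and 18.2 and 14.7, 18.2, 15.7, 15.7 and 15.4 CPM. Tk1, the thymidine kinase of the salvage pathway, read 9.61, 8.9, 26.3, 24.7 and 11.5 CPM in sham and 12.1, 13, 9.04, 12.5 and 11.9 after VAT removal. These genes, too, had their top values in sham libraries 3 and 4. For Pcna the gap was small, with 23.1, 22.6, 26, 27 and 20.5 CPM in sham and 19.4, 20.0, 19.5, 22 and 19.7 after VAT removal. Cad also moved little, from 37.5, 38.1, 47.5, 47.8 and 36.9 CPM in sham to 40.7, 37.4, 37, 40.8 and 38.9 after VAT removal, and sham libraries 3 and 4 again were highest. Tyms, thymidylate synthase, did not share the pattern: its values were 6.04, 4.7, 5.62, 5.91 and 5.78 CPM in sham and 5.24, 6.53, 5.82, 4.3 and 6.05 after VAT removal, and the groups overlapped throughout.

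Of the genes of S phase entry, Ccnd1 read 34.1, 20.9, 42.3, 45.6 and 24.5 CPM in sham SAT and 24.9, 32.7, 22.8, 24.7 and 22.4 in VAT removed SAT. Ccne1, cyclin E1, had 4.36, 4.3, 7.46, 6.16 and 3.04 CPM in sham and 4.56, 4.54, 4.88, 3.43 and 4.86 after VAT removal. Both were highest in sham libraries 3 and 4. Ccne2, cyclin E2, was not, with 5.04, 5.09, 6.02, 4.63 and 5.9 CPM in sham and 4.41, 6.91, 5.97, 4.72 and 6.15 after VAT removal. E2f1, the activating E2F, went the other way: it read 10.3, 12, 7.43, 9.71 and 11.9 CPM in sham and 15, 11.6, 11.7, 14 and 10.9 after VAT removal, so that sham libraries 3 and 4 were the lowest of the 10. It was the only member with both below the other 8, a pattern seen in 3610 of the 18530 genes tested. The inhibitor Cdkn1a had 59.4, 32.8, 50.9, 61.8 and 95.8 CPM in sham SAT and 66.3, 79.3, 72.8, 73.7 and 83.8 in VAT removed SAT, and its extremes were sham libraries 2 and 5, not 3 and 4.

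**Figure D2:**
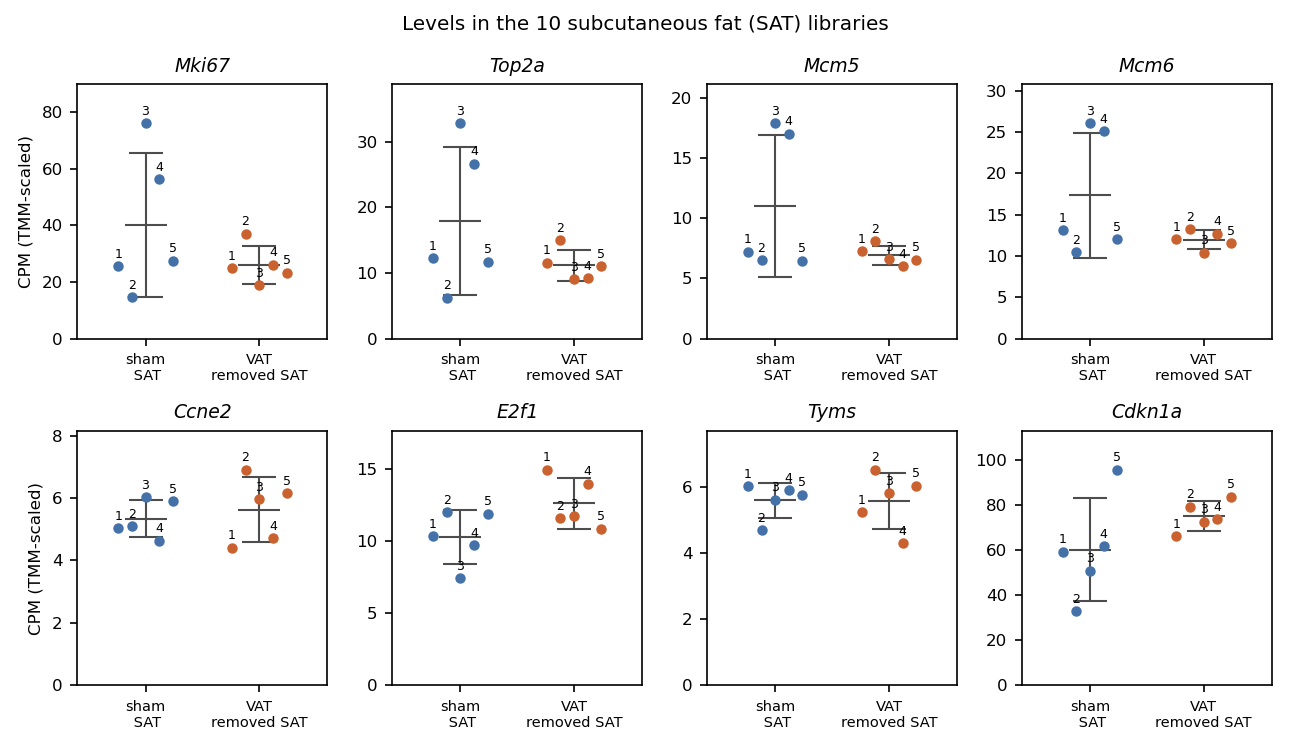
CPM (vertical axis, from 0) of 8 members in the 5 sham (blue) and 5 VAT removed (orange) SAT libraries, each point labelled with its library number; the horizontal line and bars are the mean and SD of a group. Sham libraries 3 and 4 sit above all others for Mki67, Top2a, Mcm5 and Mcm6, and do not for Ccne2, E2f1, Tyms and Cdkn1a.

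The other 12 members had the same shape in SAT. The helicase subunit genes Mcm3, Mcm4 and Mcm7 read 21.5 and 21.6 CPM in sham SAT 3 and 4 against 8.26 to 10.3 in the rest, 19.6 and 19.2 CPM in sham SAT 3 and 4 against 10.3 to 12.4 in the rest and 25.9 and 24 CPM in sham SAT 3 and 4 against 14.3 to 18 in the rest. Ccnb2, cyclin B2, read 3.92 and 2.88 CPM in sham SAT 3 and 4 against 1.03 to 2.56 in the rest. Of the checkpoint and mitotic kinases, Bub1b had 8.36 and 9.89 CPM in sham SAT 3 and 4 against 1.91 to 5.43 in the rest, Plk1 5.47 and 3.31 CPM in sham SAT 3 and 4 against 0.707 to 2.68 in the rest and Aurka 2.51 and 3.63 CPM in sham SAT 3 and 4 against 1.65 to 2.49 in the rest. In Bub1b and Aurka library 4 was above library 3, and in Ccnb2 and Plk1 library 3 was higher. Birc5, a subunit of the Aurkb complex, had 3.54 and 2.905 CPM in sham SAT 3 and 4 against 1.12 to 2.903 in the rest, and Cenpf had 13.4 and 8.39 CPM in sham SAT 3 and 4 against 1.73 to 6.47 in the rest. Birc5 in library 4 and Aurka in library 3 (2.51 against at most 2.493) were thus nearly level with the highest of the rest. The spindle motors Kif11 and Kif20a read 10.8 and 8.29 CPM in sham SAT 3 and 4 against 2.31 to 4.92 in the rest and 6.4 and 4.46 CPM in sham SAT 3 and 4 against 1.87 to 3.47 in the rest. Cdc20 had 4.97 and 4.16 CPM in sham SAT 3 and 4 against 0.998 to 2.9 in the rest, and was the one of these 12 members that was still estimated lower after VAT removal without sham SAT 3 and 4, at -0.24 ± 0.36 (adjusted p = 0.839).

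Other values moved with the members in sham SAT libraries 3 and 4. Beside the B and T cell markers given above, the adipocyte marker sum was 9942 and 8665 CPM against 13400 to 19120 in the other 8 libraries, and the sum of 7 adipose progenitor markers was 826 and 850 CPM against 1137 to 1603. The part of these cells in the levels of the members was not tested. Of other cell cycle lists, both libraries were above the other 8 in 25 of 27 replication-dependent histone genes, 40 of 55 other mitotic genes and 26 of 41 other replication genes. They were so in 12 of 30 genes of the G1 cyclins, kinases, E2F and pocket proteins, in 3 of 6 kinase inhibitors and in 4 of 23 p53 targets. Over all 18530 genes tested in SAT the share was 24.7%. Away from these libraries, sham SAT 2 had the lowest value of the 10 in 19 members, and VAT removed SAT 2 the highest of its own 5 in 21. Skeletal muscle markers (7 genes) summed to 1704 CPM in sham SAT 2 and 21040 in VAT removed SAT 2, against at most 890 in the other SAT libraries, and their part in these values was not tested.

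The letters before the start sites of a few members are shown as a description, and their part in the members' levels was not tested. RefSeq start-site windows on GRCm38.p6 were matched by symbol for 28 of the 35 members, and the 250 bases before the start were searched on both strands for 3 motifs: TTTGAA, the core of the cell cycle homology region bound by the MuvB complex, CCAAT, the box bound by NF-Y, and TTTNNCGC, a common form of the E2F site. The motifs can share bases, and a TTTNNCGC match was counted on each strand. CCAAT was present in 21 of the 28 members and in 33.8% of 32851 windows of the same length. TTTGAA was present in 7 of 28 (16% of windows), and TTTNNCGC in 4 of 28 (4.28% of windows). A match describes letters only and is not a measured site. Below are Cdk1, which holds all 3 motifs, Mki67 and Mcm6, from the mitotic and replication genes that were high in sham SAT 3 and 4, and Tyms, which was not high there and holds none. Each is the minus strand, read 5′ to 3′ and ending at the base before the start, in lower case with motif matches in capitals.
Cdk1: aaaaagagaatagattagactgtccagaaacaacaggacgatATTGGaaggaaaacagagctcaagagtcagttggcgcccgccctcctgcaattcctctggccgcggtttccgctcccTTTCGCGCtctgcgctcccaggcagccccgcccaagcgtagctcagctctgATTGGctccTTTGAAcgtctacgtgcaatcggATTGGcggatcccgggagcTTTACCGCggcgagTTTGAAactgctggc
Mki67: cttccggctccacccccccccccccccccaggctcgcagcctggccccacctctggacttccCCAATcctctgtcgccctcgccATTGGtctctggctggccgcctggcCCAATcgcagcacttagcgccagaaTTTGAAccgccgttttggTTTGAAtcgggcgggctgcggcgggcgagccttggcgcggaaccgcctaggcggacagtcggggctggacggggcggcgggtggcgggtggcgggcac
Mcm6: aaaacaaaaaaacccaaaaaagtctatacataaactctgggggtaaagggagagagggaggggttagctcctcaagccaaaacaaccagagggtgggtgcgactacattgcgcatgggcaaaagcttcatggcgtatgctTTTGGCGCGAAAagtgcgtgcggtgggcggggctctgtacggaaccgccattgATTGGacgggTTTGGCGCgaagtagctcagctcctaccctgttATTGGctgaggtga
Tyms: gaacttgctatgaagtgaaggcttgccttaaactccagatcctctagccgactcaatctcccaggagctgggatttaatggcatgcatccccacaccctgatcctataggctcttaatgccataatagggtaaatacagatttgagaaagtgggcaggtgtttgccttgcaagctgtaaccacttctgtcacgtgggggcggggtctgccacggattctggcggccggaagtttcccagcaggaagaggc

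These windows lie at chr10:69352913-69353162 for Cdk1, chr7:135716380-135716629 for Mki67, chr1:128359706-128359955 for Mcm6 and chr5:30073626-30073875 for Tyms. In Cdk1 the matches nearest the start end 10 bases before it for TTTGAA, 44 for CCAAT and 22 for TTTNNCGC, counting the base next to the start as 1. Mki67 has 2 TTTGAA and 3 CCAAT matches, and Mcm6 has 2 CCAAT and 3 TTTNNCGC matches. Among the genes outside the SAT pattern, E2f1 and Cdkn1a, like Tyms, hold none of the 3 motifs in this window, Cenpe holds 1 CCAAT match, and Ccne2 was not matched. The E2f1 window, chr2:154569427-154569676, lies inside the GENCODE span of that gene, whose outer start is at 154569892. The bases before that outer start were not searched, so their motifs are not known here. Both Mcm7 windows lie inside the span of their gene as well. Birc5, Cad, Ccne1 and Tk1, which were inside the pattern, hold none of the 3 motifs either.

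The comparison of VAT removed with sham SAT asks whether losing the visceral depot changes gene expression in the remaining fat. No gene passed an adjusted p of 0.05 by edgeR's quasi-likelihood test (0 of 18530, 0%), and no member did. At an unadjusted p under 0.05 there were 1973 genes (10.6%), and DESeq2 called 157 genes and no member. Of the members, 31 of 35 were estimated lower after VAT removal, against 50.3% of all genes, with a median of -0.36 against 0.00 over all genes. Only Pcna was lower at an unadjusted p under 0.05 (1 of 35, against 6.27% of all genes), at -0.23 ± 0.09 (adjusted p = 0.433). The next smallest p belonged to Bub1, -0.82 ± 0.38 (adjusted p = 0.475), Mcm2, -0.64 ± 0.30 (adjusted p = 0.484), and Mcm5, -0.66 ± 0.31 (adjusted p = 0.484). For Mki67 the difference was -0.60 ± 0.40 (adjusted p = 0.598), and the approximate 95% interval ran from -1.39 to 0.18. E2f1 and Cdkn1a were among the 4 members estimated higher, at 0.31 ± 0.15 (adjusted p = 0.484) and 0.34 ± 0.23 (adjusted p = 0.601). In no member were the groups free of overlap, against 0.788% of all genes with VAT removed lower. Leaving out sham SAT 2 alone put 17 members (16 lower, 1 higher) at an unadjusted p under 0.05, against 15.1% of all genes, with none called, and the member median was -0.18 without sham SAT 3 and -0.24 without sham SAT 4.

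Without sham SAT libraries 3 and 4 the estimates turned. No gene of 19035 passed (0%), with 1670 at an unadjusted p under 0.05 (8.77%), and DESeq2 called 78 genes and no member. Now 7 of 35 members were estimated lower, against 47.6% of all genes, and the median was 0.11 against 0.01. Mki67 had 0.21 ± 0.26 (adjusted p = 0.811), Top2a 0.16 ± 0.24 (adjusted p = 0.851) and Mcm5 0.05 ± 0.12 (adjusted p = 0.921). Aurkb was the member with the smallest p and the 1 member higher at an unadjusted p under 0.05, against 4.7% of all genes, at 0.68 ± 0.22 (adjusted p = 0.555), with all 5 VAT removed libraries above the 3 sham libraries. Groups did not overlap, with VAT removed higher, in 2.86% of all genes and in this 1 member. After it came Cenpe, 0.43 ± 0.20 (adjusted p = 0.575), Foxm1, 0.44 ± 0.25 (adjusted p = 0.629), and Tk1, 0.23 ± 0.14 (adjusted p = 0.639). For the 12 replication genes the largest estimate in size was that of Tk1, and those of Mcm2 to Mcm6 lay between -0.06 and 0.05.

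**Figure D3:**
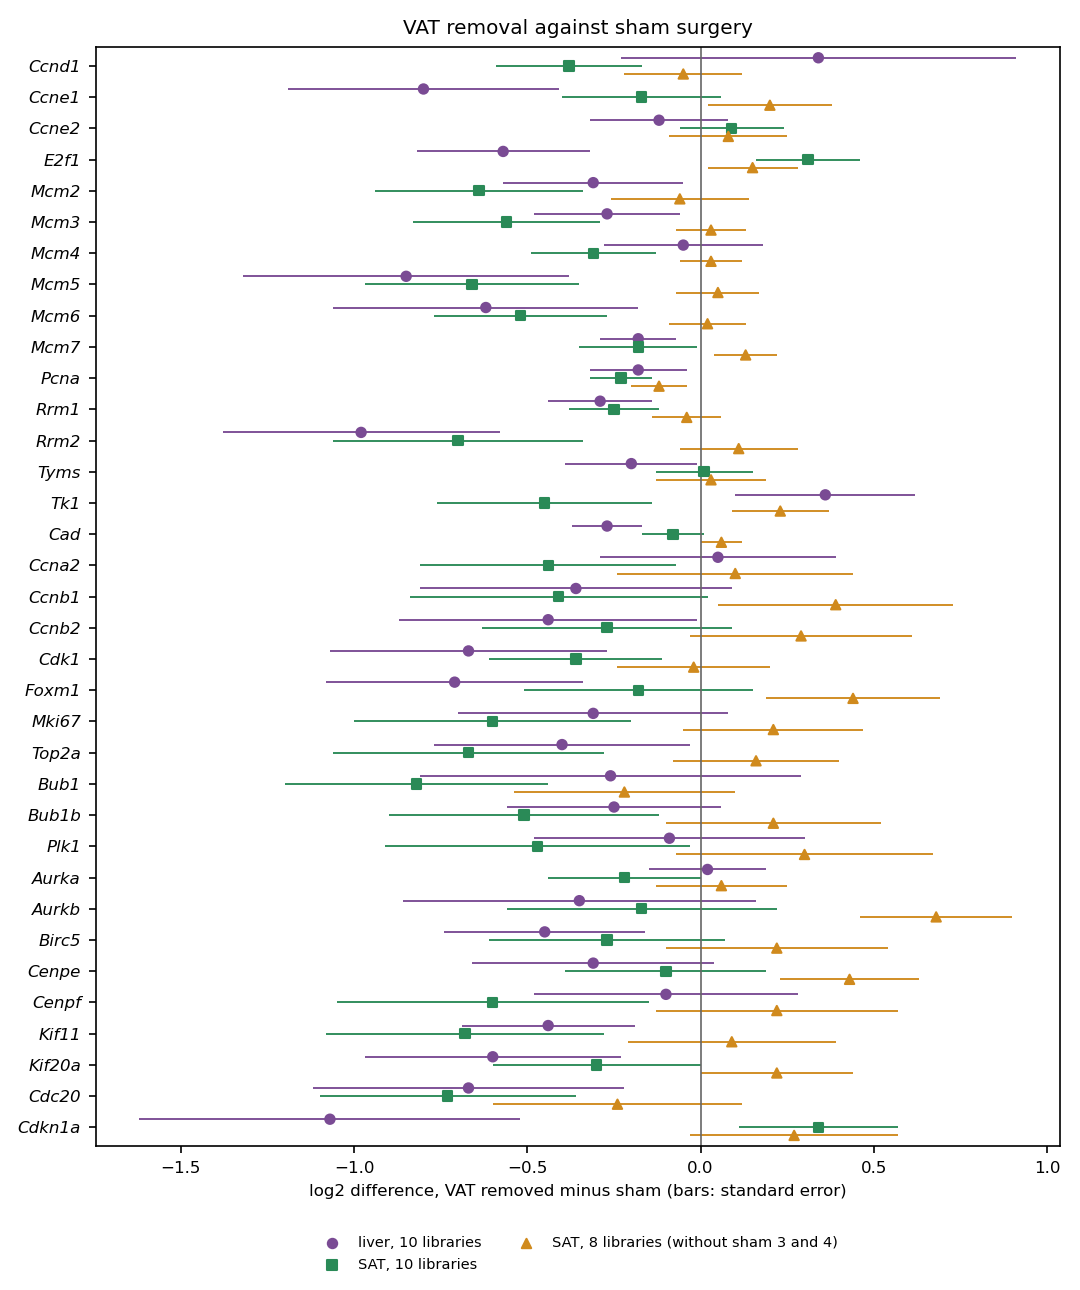
Log2 difference, VAT removed minus sham (horizontal axis; bars are the SE of the fit), for the 35 members in liver (circles), SAT (squares) and SAT without sham libraries 3 and 4 (triangles). No difference passed an adjusted p of 0.05, and in liver and in all SAT libraries 31 of 35 estimates lie below 0, and without the 2 sham libraries 7 of 35 do.

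The wider cell cycle lists, also chosen with earlier results of these data known, held no called gene in SAT. Of 55 other mitotic genes 49 were estimated lower after VAT removal, with a median of -0.40, and the smallest p belonged to Knl1, a kinetochore scaffold, at -0.89 ± 0.33 (adjusted p = 0.43), and Smc4, a condensin subunit, at -0.76 ± 0.34 (adjusted p = 0.462). Of 41 other replication genes 31 were estimated lower (median -0.23), led by Pold1, the catalytic subunit of a replicative polymerase, at -0.82 ± 0.32 (adjusted p = 0.433), and the chromatin assembly factor Chaf1b at -0.89 ± 0.37 (adjusted p = 0.442). Histone genes (27) had a median of -0.63, with Hist1h1c at -0.32 ± 0.12 (adjusted p = 0.433) and Hist2h2ac at -0.38 ± 0.15 (adjusted p = 0.433). In the G1 list (30 genes, median -0.11) E2f2 had -1.07 ± 0.43 (adjusted p = 0.433) and Cdc25b -0.56 ± 0.24 (adjusted p = 0.451). Among 6 kinase inhibitors Cdkn2d had -0.35 ± 0.12 (adjusted p = 0.43) and Cdkn1b -0.30 ± 0.19 (adjusted p = 0.579). The 23 p53 targets had a median of 0.08, and of these Eda2r read 1.43 ± 0.51 (adjusted p = 0.43) and Ddit4l 3.69 ± 1.52 (adjusted p = 0.443), each with its highest value in VAT removed SAT 2. Without sham SAT libraries 3 and 4 the medians were 0.11 for other mitotic genes, 0.06 for other replication genes and 0.00 for histones, with 0 genes called.

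In liver, the same surgery contrast asks whether loss of visceral fat changes hepatic expression on the diet. No gene of 17078 passed by edgeR's test (0%), with 1691 at an unadjusted p under 0.05 (9.9%), and DESeq2 called 223 genes and no member. Of the 35 members, 31 were estimated lower after VAT removal, against 47.8% of all genes, with a median of -0.31 against 0.01. At an unadjusted p under 0.05 stood 3 members, all lower, against 5.22% of all genes. These were Cad, -0.27 ± 0.10 (adjusted p = 0.428), Rrm2, -0.98 ± 0.40 (adjusted p = 0.467), and E2f1, -0.57 ± 0.25 (adjusted p = 0.48), followed by Ccne1 at -0.80 ± 0.39 (adjusted p = 0.54). In no member did the groups fail to overlap, against 1.67% of all genes with VAT removed lower.

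The liver values turned on a few libraries. Sham liver 2 had the highest value of the 10 in 17 members and sham liver 5 in 14, while VAT removed liver 3 had the lowest in 19 and sham liver 1 in 8. The libraries differed in which genes were high: sham liver 2 led in 11 of 12 replication genes, and sham liver 5 in 10 of 13 spindle genes. Summed over the members, sham liver libraries 1 to 5 had 264, 664, 332, 366 and 554 CPM and VAT removed liver libraries 434, 400.4, 243, 390.5 and 422 CPM. Without sham liver 2 and VAT removed liver 3 the median member difference was -0.05, and without sham liver 2 and 5 it was 0.05, with 16 of 35 estimated lower.

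Among the replication genes, Mcm5 read 4.63, 29.2, 7.3, 6.41 and 12.1 CPM in sham liver libraries 1 to 5 and 8.11, 6.86, 4.07, 5.8 and 8.12 in VAT removed liver. Mcm2 had 7.72, 18.9, 13, 14.4 and 16.7 CPM in sham and 11.6, 12.7, 5.8, 12.6 and 14.2 after VAT removal. In both genes sham library 2 was highest, in Mcm5 by a wide margin, and VAT removed library 3 was below the rest of its group. Mcm6, another helicase subunit, had 8.02, 43.8, 12.2, 12.1 and 17.1 CPM in sham and 12.8, 13.3, 6.04, 13.6 and 14.6 after VAT removal. Rrm2 had 6.22, 30.0, 12.3, 12.7 and 12.9 CPM in sham and 6.66, 10.4, 6.04, 3.79 and 10.4 after VAT removal, where all 5 libraries were below the sham mean. Its partner Rrm1 had 15.7, 25.2, 16, 16.4 and 18 and 13.5, 15.9, 11.7, 16.4 and 16.6 CPM. Pcna read 18.9, 32.5, 19.4, 21.1 and 20.6 CPM in sham and 20.9, 19.3, 18.5, 19.7 and 20.4 after VAT removal, and apart from sham library 2 the groups lay close together. Tyms had 6.52, 11.8, 8.26, 9.31 and 8.08 CPM in sham and 9.49, 7.35, 5.8, 6.22 and 9.15 after VAT removal. Tk1 was an exception, being estimated higher after VAT removal at 0.36 ± 0.26 (adjusted p = 0.692): it had 19, 43.2, 22, 22.6 and 25.3 CPM in sham and 32.5, 21.5, 40.1, 45.9 and 29.4 after VAT removal. In Tk1, VAT removed library 3, low for most members, was the second highest of its group. Cad read 35.5, 36.8, 34.1, 35.1 and 32.3 CPM in sham liver and 25.8, 28.4, 36.5, 25.1 and 27.4 after VAT removal, where 4 of 5 libraries lay below every sham library and library 3 lay above 4 of the 5 sham libraries. Without VAT removed liver 3, Cad passed the threshold at -0.38 (adjusted p = 0.0493), among 53 genes called (0.304% of 17407). With any other liver library left out alone, its adjusted p by the same test was 0.478 to 0.715. Without sham liver 2 and VAT removed liver 3 together, no member was called.

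Of the genes of S phase entry, Ccnd1 read 36.1, 139, 46, 41.5 and 111 CPM in sham and 157, 87.5, 14.3, 114 and 100 after VAT removal, at 0.34 ± 0.57 (adjusted p = 0.891). VAT removed library 3 had the lowest value and library 1 the highest of all 10. Ccne1 had 0.944, 3.29, 1.17, 1.85 and 1.74 CPM in sham and 1.38, 1.34, 0.359, 0.936 and 1.06 after VAT removal. Ccne2 had 5.28, 8.49, 3.96, 5.66 and 6.65 and 4.51, 5.94, 6.7, 5.34 and 5.09 CPM, with the groups overlapping throughout. E2f1 read 8.23, 17.5, 9.09, 13.2 and 9.47 CPM in sham and 5.89, 7.7, 5.26, 8.00 and 11.5 after VAT removal, with sham library 2 highest and VAT removed library 3 lowest of the 10.

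Among the mitotic genes in liver, Cdk1 had 1.33, 6.48, 2.87, 2.4 and 3.34 CPM in sham and 1.65, 2.88, 1.2, 1.54 and 2.96 after VAT removal, at -0.67 ± 0.40 (adjusted p = 0.62). Ccna2 had 1.46, 4.37, 3.13, 2.95 and 4.98 CPM in sham and 3.17, 5.52, 1.91, 2.62 and 4.12 after VAT removal. Ccnb1 read 0.472, 2.18, 1.48, 1.73 and 3.65 and 1.76, 2.11, 0.957, 0.796 and 1.74 CPM. The values of sham library 1 were the lowest of the 10 in Ccna2 and Ccnb1. Foxm1 had 5.23, 6.17, 3.74, 3.81 and 6.2 CPM in sham and 3.21, 4.89, 0.658, 2.95 and 3.45 after VAT removal, at -0.71 ± 0.37 (adjusted p = 0.564). Mki67 read 8.66, 30.7, 23, 19.6 and 38.3 CPM in sham and 19.7, 29, 8.73, 16.9 and 22.1 after VAT removal, at -0.31 ± 0.39 (adjusted p = 0.841). For Top2a the values were 3.43, 15.8, 9.78, 8.88 and 15.4 CPM and 8.00, 9.81, 4.01, 8.29 and 10.2 CPM. Sham library 1 and VAT removed library 3 were lowest in both. Aurkb had 0.429, 3.46, 1.7, 1.1 and 2.68 CPM in sham and 1.76, 2.11, 0.479, 1.03 and 1.9 after VAT removal. Cenpe read 1.54, 4.4, 3.39, 3.46 and 5.22 and 2.6, 4.11, 1.14, 2.9 and 3.64 CPM, and Bub1 0.257, 0.901, 0.174, 0.55 and 1.39 and 0.459, 0.422, 0.359, 0.374 and 1.09 CPM. Sham library 5 was the highest of the 10 for Cenpe and Bub1. The inhibitor Cdkn1a had 13.6, 58.5, 12.7, 28.9 and 82.4 CPM in sham and 10.6, 25.5, 14.2, 11.5 and 31.6 after VAT removal, at -1.07 ± 0.55 (adjusted p = 0.566). It was highest in sham libraries 5 and 2, in which other members were high as well.

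**Figure D4:**
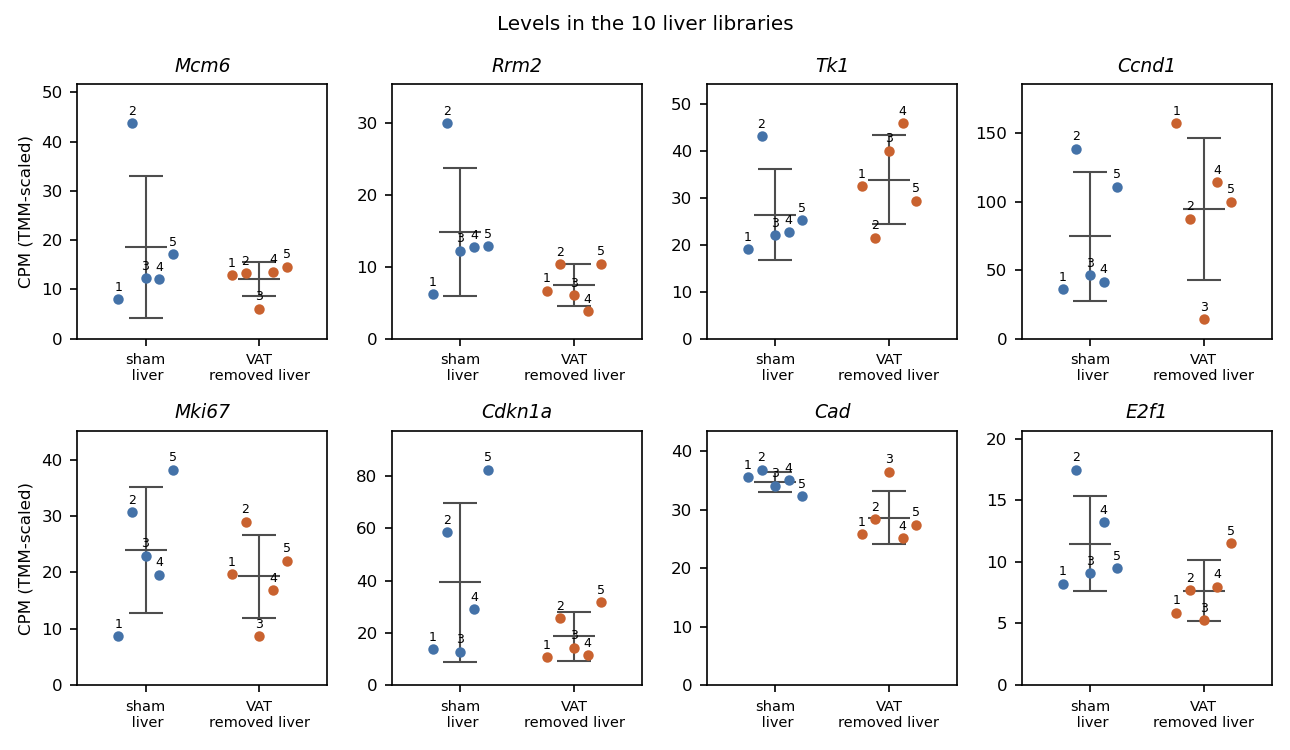
CPM (vertical axis, from 0) of 8 members in the 5 sham (blue) and 5 VAT removed (orange) liver libraries, each point labelled with its library number; the horizontal line and bars are the mean and SD of a group. Sham library 2 tops Mcm6 and Rrm2, sham library 5 tops Mki67 and Cdkn1a, and VAT removed library 3 is lowest of its group for Mcm6, Ccnd1, Mki67 and E2f1 and highest for Cad.

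The other 12 members in liver overlapped between the groups as well. Mcm3 spanned 10.0 to 17.4 CPM in sham and 6.22 to 13.2 after VAT removal, Mcm4 7.68 to 15.9 CPM in sham and 6.88 to 13.3 after VAT removal and Mcm7 16.9 to 24.9 CPM in sham and 16.9 to 19.8 after VAT removal, each highest in sham library 2. Ccnb2 spanned 1.24 to 4.14 CPM in sham and 0.538 to 3.69 after VAT removal, Bub1b 1.8 to 4.8 CPM in sham and 1.2 to 3.37 after VAT removal and Plk1 1.03 to 3.31 CPM in sham and 0.598 to 2.74 after VAT removal. Birc5 spanned 1.5 to 4.91 CPM in sham and 1.84 to 3.34 after VAT removal, Cenpf 1.8 to 8.14 CPM in sham and 2.27 to 6.86 after VAT removal and Kif11 2.59 to 5.92 CPM in sham and 2.06 to 3.52 after VAT removal. Kif20a spanned 1.84 to 7.07 CPM in sham and 1.02 to 3.6 after VAT removal, and Cdc20 1.72 to 6.96 CPM in sham and 0.479 to 4.01 after VAT removal. Sham library 5 was the highest of the 10 in these 8 genes from Ccnb2 to Cdc20. Aurka spanned 3.6 to 5.03 CPM in sham and 3.32 to 5.45 after VAT removal and had its top value in VAT removed library 2. The estimates of the 12 ran from -0.67 for Cdc20 to 0.02 for Aurka.

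The 10 T cell markers summed to 23.8 and 25.6 CPM in sham liver 2 and 5, to 23.7 in VAT removed liver 5 and to 9.51 to 15.4 in the other 7 liver libraries. The 10 B cell markers summed to 11.54 and 11.14 CPM in sham liver 2 and 5, within the 10.65 to 38.1 of the rest. The 10 macrophage markers summed to 615 and 619 CPM in sham liver 2 and 5, 786 in VAT removed liver 1 and 321 to 558 in the rest. In VAT removed liver 3 the T cell and macrophage sums were 9.51 and 380 CPM, and its total count was the lowest of all libraries. The 7 Kupffer cell markers, of liver macrophages, had another order. They summed to 427 and 503 CPM in sham liver 2 and 5, 685 in VAT removed liver 1, 516 in VAT removed liver 3 and 256 to 441 in the rest. The part of these cells and of depth in the members' values was not tested.

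The wider lists in liver held no called gene. Of 54 other mitotic genes 49 were estimated lower after VAT removal (median -0.26). Spc24, an outer kinetochore subunit, had -0.79 ± 0.22 (adjusted p = 0.309), with 18.8, 33, 15.8, 19.5 and 17 CPM in sham and 12.2, 10.2, 8.08, 14.3 and 15 after VAT removal. Its groups did not overlap, the 1 such case with VAT removed lower among the 54 genes, against 1.67% of all genes. Among the 23 p53 targets there were 2 such genes. Nek2, a centrosome kinase, had -0.65 ± 0.23 (adjusted p = 0.397). The 40 other replication genes had a median of -0.11, with Dbf4, the activator of the Cdc7 kinase, at -0.40 ± 0.15 (adjusted p = 0.426) and the polymerase subunit Pola2 at 0.25 ± 0.10 (adjusted p = 0.454). In the G1 list (29 genes, median -0.02) the E2F partner Tfdp1 had -0.39 ± 0.13 (adjusted p = 0.363) and the repressor E2f8 0.62 ± 0.24 (adjusted p = 0.438). Of 23 p53 targets 19 were estimated lower (median -0.19), led by Mdm2, the ligase of p53, at -0.37 ± 0.11 (adjusted p = 0.309), and Bbc3 at -0.29 ± 0.10 (adjusted p = 0.381). Among 6 kinase inhibitors Cdkn2a had 2.30 ± 0.93 (adjusted p = 0.464) with 0, 0, 0.261, 0.354 and 0.383 CPM in sham and 2.64, 0.668, 0.897, 0.702 and 0.0644 after VAT removal, and Cdkn1c 0.48 ± 0.21 (adjusted p = 0.479). The 28 histone genes had a median of -0.13, with Hist1h4h at 0.22 ± 0.08 (adjusted p = 0.422) and Hist1h3d at -0.74 ± 0.35 (adjusted p = 0.528).

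Whether the response to surgery differed between the tissues was tested as the difference of the 2 differences, SAT minus liver, in 1 fit of 20 libraries. No gene of 19954 passed (0%), with 2021 at an unadjusted p under 0.05 (10.1%), and DESeq2 called 124 genes and no member. Of the members 18 were estimated below 0, against 54% of all genes, and their median was -0.01 against -0.03 over all genes. E2f1 had the smallest p, at 0.88 ± 0.31 (adjusted p = 0.361), with estimates of -0.57 in liver and 0.31 in SAT. Cdkn1a followed at 1.39 ± 0.62 (adjusted p = 0.449), with -1.07 in liver and 0.34 in SAT. These were the only members at an unadjusted p under 0.05, both with the larger value in SAT, against 3.61% of all genes. Without sham SAT libraries 3 and 4 none of 20499 genes passed (0%, with 1359 or 6.63% at an unadjusted p under 0.05), 33 of 35 members were estimated above 0, against 48.4% of all genes, and the median was 0.44. Cad, E2f1 and Foxm1 were then above 0 at an unadjusted p under 0.05 (3 of 35, against 2.78% of all genes), at 0.32 ± 0.13 (adjusted p = 0.699), 0.71 ± 0.32 (adjusted p = 0.728) and 1.14 ± 0.51 (adjusted p = 0.724). The member median of the liver fit alone was -0.31, and 0.05 without sham liver 2 and 5. The difference was not fitted with both these liver libraries and sham SAT 3 and 4 left out.

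Between the tissues themselves, most genes differed and most members did not. In the VAT removed groups, 69.7% of 18546 genes passed an adjusted p of 0.05, 35% higher and 34.7% lower in SAT, and 11 of 35 members did. The sham groups gave 65% of 18449 genes (35.3% higher, 29.7% lower) and 6 of 35 members. Without SAT libraries 3 and 4 they gave 64.1% of 19007 genes (32.9% higher, 31.2% lower) and 9 of 35 members. These comparisons use the same libraries as those of surgery. They depend on scaling: with total counts in place of TMM the median of all genes rose from -0.01 to 0.51 in the VAT removed groups and from 0.11 to 0.69 in sham, the member medians from 0.06 to 0.58 and from 0.11 to 0.70, and 25 and 12 members passed. Under that scaling 74.9% of all genes passed in the VAT removed groups (54.9% higher in SAT) and 75.6% in sham (58.3% higher), and of the members 21 of the 25 and all 12 were higher in SAT.

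Higher in liver were Ccnd1, Rrm2, Tyms and Aurka in both surgery groups. Ccnd1 stood at -1.89 ± 0.46 (adjusted p = 0.00364) in the VAT removed groups and -1.14 ± 0.40 (adjusted p = 0.0271) in sham, and Rrm2 at -1.29 ± 0.26 (adjusted p = 0.000815) and -1.53 ± 0.48 (adjusted p = 0.0151). In sham, Ccnd1 lost its call without sham liver 2, without sham liver 5, with no filter on low counts and with a replicate block. Aurka, a centrosome kinase, had means of 4.5 ± 0.819 CPM in VAT removed liver and 2.04 ± 0.324 in VAT removed SAT (SD, n = 5), at -1.15 ± 0.17 (adjusted p = 0.000103), and in sham -0.86 ± 0.22 (adjusted p = 0.00458). Tyms stood at -0.45 ± 0.17 (adjusted p = 0.0327) and -0.62 ± 0.16 (adjusted p = 0.00603), and with total count scaling the VAT removed value turned to 0.06. It also lost its call without VAT removed SAT 1, 3 or 4, or VAT removed liver 1 or 5. With total counts none of the 4 genes passed in sham, while Ccnd1, Rrm2 and Aurka still did in the VAT removed groups. Tk1 was higher in liver in the VAT removed groups, with means of 33.9 ± 9.46 and 11.7 ± 1.56 CPM, at -1.53 ± 0.19 (adjusted p = 1.99e-05). In sham Tk1 had -0.69 ± 0.35 (adjusted p = 0.107), and without SAT libraries 3 and 4 -1.35 ± 0.27 (adjusted p = 0.00159). Without those libraries Mcm2, Mcm7 and Birc5, the last encoding survivin, also passed as higher in liver, at -0.76 ± 0.25 (adjusted p = 0.0252), -0.38 ± 0.13 (adjusted p = 0.032) and -1.15 ± 0.37 (adjusted p = 0.0200).

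Higher in SAT were Ccne1 and Cad in both surgery groups. Ccne1 had means of 1.01 ± 0.41 CPM in VAT removed liver and 4.46 ± 0.595 in VAT removed SAT, at 2.10 ± 0.27 (adjusted p = 2.84e-05), and in sham it stood at 1.51 ± 0.35 (adjusted p = 0.00292). Cad stood at 0.44 ± 0.10 (adjusted p = 0.00189) and 0.28 ± 0.09 (adjusted p = 0.0192), and without SAT libraries 3 and 4 the sham value was 0.17 ± 0.07 (adjusted p = 0.052). Its sham call was also lost without sham liver 5 and with a replicate block. Cdkn1a was higher in SAT in the VAT removed groups, with means of 18.7 ± 9.36 CPM in liver and 75.2 ± 6.67 in SAT, at 2.00 ± 0.29 (adjusted p = 7.31e-05). For sham its means were 39.3 ± 30.4 and 60.2 ± 23 CPM, at 0.64 ± 0.51 (adjusted p = 0.288). E2f1, Cenpe and Aurkb also passed in the VAT removed groups, at 0.71 ± 0.20 (adjusted p = 0.00681), 0.89 ± 0.29 (adjusted p = 0.0154) and 0.77 ± 0.32 (adjusted p = 0.048), and none of the 3 did in sham. With 1 library left out at a time, Aurkb kept its call only without VAT removed liver 2 or 5. Mki67 had 0.42 ± 0.27 (adjusted p = 0.187) in the VAT removed groups and 0.75 ± 0.47 (adjusted p = 0.179) in sham, and Cdk1 0.59 ± 0.27 (adjusted p = 0.0753) and 0.32 ± 0.38 (adjusted p = 0.478).

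**Figure D5:**
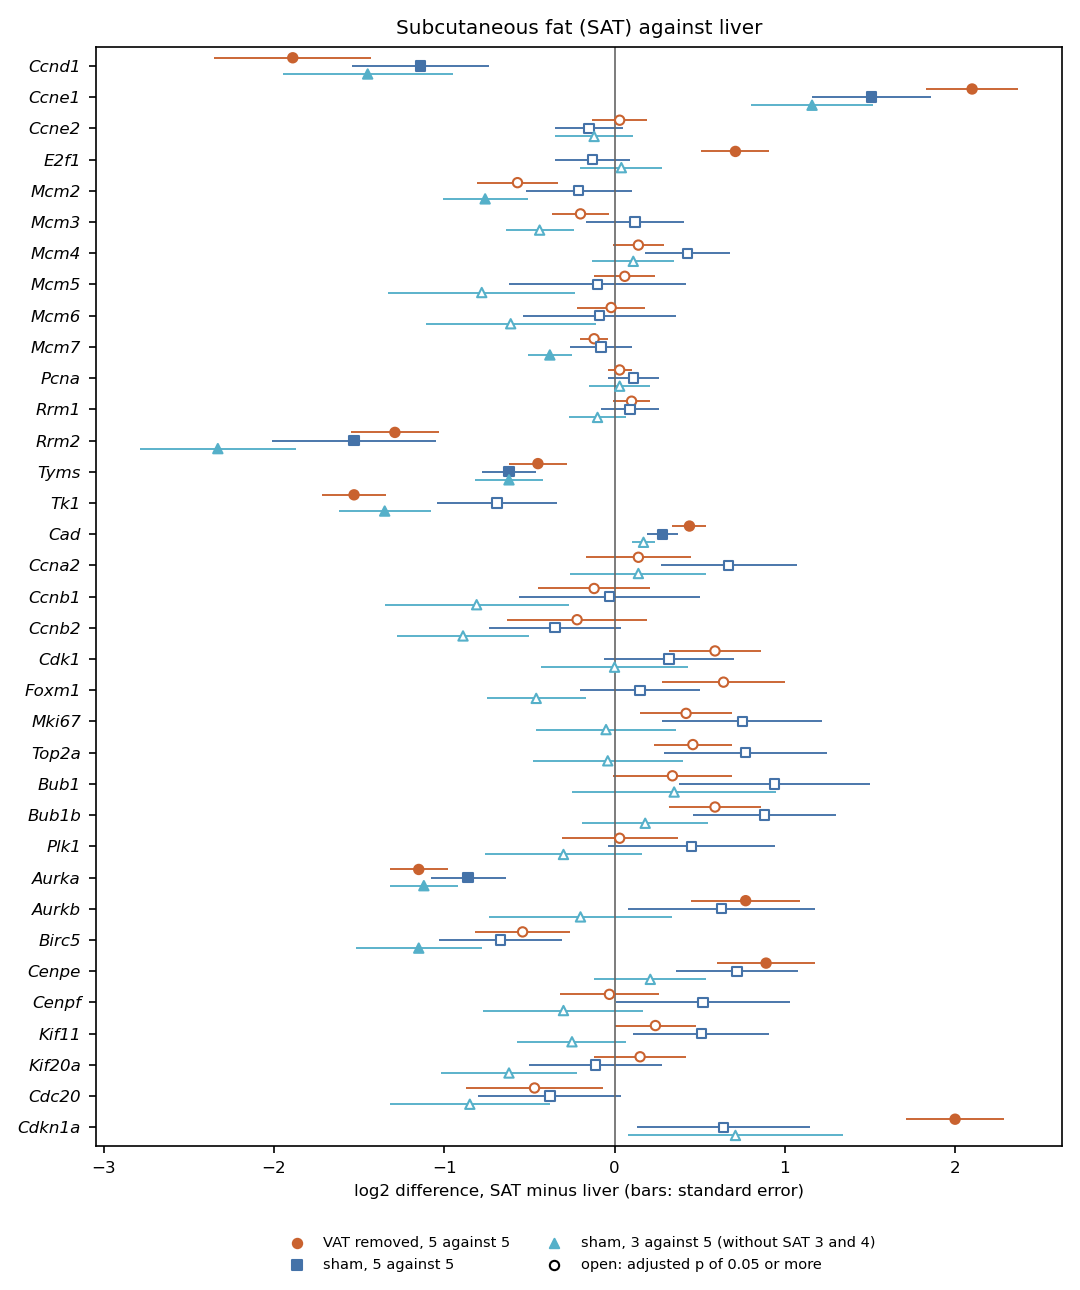
Log2 difference, SAT minus liver (horizontal axis; bars are the SE of the fit), for the 35 members in the VAT removed groups (circles), the sham groups (squares) and the sham groups without SAT libraries 3 and 4 (triangles), with symbols filled where the adjusted p was under 0.05 (11, 6 and 9 members). Ccnd1, Rrm2, Tyms and Aurka are filled on the side of liver in all 3, and Ccne1 on the side of SAT.

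Related genes of the same pathways were compared between the tissues in the VAT removed groups, where over all genes 35% passed as higher and 34.7% as lower in SAT. Mcm10, a factor of replication start, had means of 61.2 CPM in liver and 2.65 in SAT, at -4.54 ± 0.34 (adjusted p = 3.42e-07). Of 40 other replication genes 13 passed as higher and 11 as lower in SAT. Among 55 other mitotic genes, 16 passed as higher and 7 as lower in SAT, with Spc24 at -3.55 ± 0.21 (adjusted p = 4.10e-08) and Cks2, a subunit of the mitotic kinase complex, at -2.25 ± 0.16 (adjusted p = 1.47e-07). The G1 list had 13 higher and 5 lower of 29, with Ccnd2, cyclin D2, at 3.93 ± 0.15 (adjusted p = 9.22e-10), opposite in sign to Ccnd1, and the retinoblastoma gene Rb1 at 1.95 ± 0.06 (adjusted p = 2.31e-10). E2f8 was lower in SAT at -4.48 ± 0.37 (adjusted p = 7.98e-07). Kinase inhibitors passed as higher in SAT for 4 of 6, among them Cdkn2c at 3.57 ± 0.18 (adjusted p = 1.13e-08) and Cdkn2b at 3.46 ± 0.38 (adjusted p = 6.70e-06), and as lower for 1. Of 23 p53 targets 10 passed as higher and 6 as lower, with Perp at -7.66 ± 0.15 (adjusted p = 1.29e-11) and Phlda3 at 5.57 ± 0.30 (adjusted p = 2.31e-08). Histones gave 5 higher and 10 lower of 28, led by Hist1h4h at -0.95 ± 0.09 (adjusted p = 1.60e-06).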

How the data were processed

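Liver and SAT RNA was measured in 20 libraries, 5 in each of 4 groups read from the sample labels. The deposited values are whole-number counts of reads per gene: per the submitters' processing notes, bcl2fastq, STAR 2.5.1a, GRCm38 and featureCounts 1.46 of Subread were used by the authors. The labels do not state the annotation behind the counts, strand use or the treatment of reads that match several genes, so counts of near-identical genes such as the histones are uncertain. Of 40757 entries, 317 exact repeats were dropped, 102 of them with counts, and 117 symbols kept several entries.

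Members were matched by symbol. Members, gene lists and tests were chosen with earlier results of these data known. Counts were fitted in R 4.3.3 with edgeR 4.0.16 (filterByExpr by group, TMM scaling, robust quasi-likelihood F-test, Benjamini-Hochberg adjustment over all genes tested, threshold 0.05). Liver and SAT were fitted apart, the difference in response in 1 fit of 20 libraries, and SAT against liver within each surgery group. The value after ± of a log2 difference is its standard error from the F statistic. Intervals are the estimate ± 1.96 standard errors, so 95% is approximate and they can be narrower than the F-test implies. Levels per kb use exon lengths of GENCODE M21. Start-site windows are from RefSeq. The fitting code was tested on simulated data. Alternatives were DESeq2 1.42.0, limma-voom (limma 3.58.1), other scalings, other filters, a replicate block and leaving out libraries. Total count scaling, leaving out pairs of liver libraries, the member spread without VAT removed liver 3, and DESeq2 and limma-voom without sham SAT 3 and 4 were chosen after seeing the data. All 35 members are accounted for. Values in each library are given for a fixed list of members and for the 4 smallest p of each surgery comparison, and pathway genes are named by smallest p. Some genes that this rule or the marker lists would name are not reported here.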

Additional observations from a re-analysis of the deposited data

Results flagged for a closer look

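In 13 of 140 combinations of a member and a group of 5 libraries, 1 library lay far from the other 4 (its gap to the next exceeded 0.71 of the group's range). For normally distributed values, chance gives about 1 in 20 such combinations. That rate was not checked for CPM values, and the combinations share libraries. In sham liver, library 2 was far above the others in 5 nucleotide and replication genes: Mcm6 at 43.8 CPM (others 8.02 to 17.1), Tk1 at 43.2 (19 to 25.3), Pcna at 32.5 (18.9 to 21.1), Rrm2 at 30.0 (6.22 to 12.9) and Rrm1 at 25.2 (15.7 to 18). In VAT removed liver, library 3 was far below the others for Mcm6 at 6.04 CPM (12.8 to 14.6) and far above them for Cad at 36.5 (25.1 to 28.4), and library 5 was far above for Bub1 at 1.09 (0.359 to 0.459). In VAT removed SAT, library 2 was far above for Ccnd1 at 32.7 CPM (22.4 to 24.9) and Rrm2 at 3.85 (2.7 to 2.98). Library 4 was far below for Ccne1 at 3.43 CPM (4.54 to 4.88) and far above for Pcna at 22.0 (19.4 to 20.0), and library 3 was far below for Tk1 at 9.04 (11.9 to 13.0). What set these libraries apart was not tested.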

How the results depend on the processing

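The signs of the SAT estimates depended on sham SAT libraries 3 and 4, a choice made with earlier results of these data known. Without them Mki67 was 0.21, Top2a 0.16, Ccna2 0.10, Ccnb1 0.39, Ccne1 0.20, Foxm1 0.44, Rrm2 0.11, Mcm5 0.05, Tk1 0.23, Cad 0.06 and the member median 0.11. DESeq2 on these libraries gave 0.21, 0.16, 0.10, 0.39, 0.19, 0.45, 0.11, 0.04, 0.23, 0.06 and 0.11 in the same order, with 78 genes called, and limma-voom 0.24, 0.22, 0.13, 0.35, 0.19, 0.54, 0.11, 0.03, 0.23, 0.06 and 0.13. With all libraries, SAT Tyms was -0.01 in 1 fit of 20 libraries and 0.00 with a filter of 1 CPM in 5 libraries. DESeq2 called 223 genes in liver, 157 in SAT and 124 for the difference in response. In liver, 27 genes were called in 1 fit of 20 libraries and 3 with limma-voom, with the stricter filter and with no filter. Without sham liver 2 and VAT removed liver 3, liver Pcna and Tyms were 0.01 and 55 genes were called. Without sham liver 2 and 5, liver Mki67 was 0.20, Top2a 0.16, Ccnb1 0.30, Ccne2 0.17, Pcna 0.02, Mcm5 0.14 and Cdkn1a 0.05. Total count scaling between tissues gave VAT removed Tyms 0.06, 25 members and a median of 0.58, and in sham 12 members and 0.70. Leaving out 1 library at a time, called genes ran from 0 to 53 in liver (53 without VAT removed liver 3), 0 to 1 in SAT and 0 to 3 for the difference in response, and called members in liver from 0 to 1. Among the members recomputed singly, estimates that changed sign were liver Ccna2 (-0.17 to 0.24), Ccnb1 (-0.60 to 0.03) and Ccne2 (-0.24 to 0.04), and SAT Ccne1 (-0.30 to 0.00), Foxm1 (-0.39 to 0.03) and Tyms (-0.06 to 0.09). Over all 35 members, 31 liver estimates were below 0, and 26 without sham liver 5. The cause of these changes was not tested. The labels do not say that equal replicate numbers mark one mouse, and the correlations of same-numbered libraries were not over 0.1 in every pair (-0.039 to 0.125 in liver, -0.207 to 0.314 in SAT, -0.115 to 0.08 between tissues in sham and 0.015 to 0.064 in VAT removed, where 4 of 5 libraries correlated best with their own number). Such best matches numbered 3 of 5 between sham and VAT removed liver, which are different arms. They numbered 1 of 5 between the SAT groups and 0 of 5 between tissues in sham. With a replicate block no gene was called in liver or SAT, the SAT member median was -0.26, and between tissues 15 members (67.5% of all genes) were called in VAT removed and 4 (59.5%) in sham, against 11 and 6 without it. Low counts limit Bub1 and Ccne1 in liver, where single libraries held 4 and 6 reads. Cdc20, Ccnb2 and Aurkb were low there too, with lowest values of 0.479, 0.538 and 0.429 CPM against 0.359 for Ccne1.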
